A study of Caenorhabditis elegans with 2 samples.

Results

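The genes described here are the cytosolic ribosomal protein genes of C. elegans, taken as every protein-coding gene of the Ensembl annotation of WBcel235 whose name is rpl- or rps- followed by a digit. There were 78 of them among 19973 protein-coding genes, 47 for the large subunit (rpl) and 31 for the small subunit (rps). The question was at which of their promoters the zinc finger protein ZTF-22 had ChIP-seq peaks, how strong these were and what the DNA under them shared. The data came from 1 group of whole young adult animals of both sexes, collected at 68 hours after a culture synchronised by bleaching and L1 starvation. The strain, OP676, carries the mutation unc-119(tm4063) and the transgene wgIs676, in which ztf-22 is followed by the tags TY1, EGFP and 3xFLAG and which also holds unc-119(+). The immunoprecipitated protein is thus a copy tagged at its C terminus. Chromatin was sonicated and precipitated with an anti-GFP antibody. The labels name 2 biological replicates and no second condition, and their antibody field reads ztf-22. Chromatin of all cell types was combined, so strong binding in few cells and weak binding in many cells cannot be told apart.

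The cytosolic ribosome makes all proteins encoded in the nucleus, and a ribosome needs each of its proteins in about equal amount together with ribosomal RNA. In animals the genes of these proteins lie scattered over the genome and are among the most strongly transcribed. Some of their introns carry small nucleolar RNAs (snoRNAs), which guide the chemical modification of ribosomal RNA. In C. elegans many transcripts receive a spliced leader at their 5′ end, and an annotated start can then be the site where the leader was joined rather than the place where transcription began.

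The values are the authors' lists of regions: the optimal peaks kept after the replicates were compared, and 30000 candidate regions each for the pooled reads, replicate 1 and replicate 2, which include weak regions meant as background. Each region has a summit and a signal value on the scale of the authors' caller, whose median was 48.4 in the pooled list, 19.2 in replicate 1 and 34.5 in replicate 2, so lists are compared by rank, with rank 1 the strongest. The optimal peaks were exactly the strongest pooled regions, and the weakest of them had a signal value of 110.11. A gene was given the best-ranked summit from 500 bp upstream to 200 bp downstream of any of its transcript starts, called its promoter window. Read depth is unknown from these files, and no interval below covers it.

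Of the 78 ribosomal protein genes, 11 had an optimal peak in the promoter window: rpl-3, rpl-15, rpl-20, rpl-35, rps-19, rps-1, rpl-12, rps-28, rps-12, rpl-7A and rpl-11.2. Most of these summits lay well upstream of the annotated start, and the strongest of them shared short words of sequence. The pooled summit with 50 bp on either side is printed for the 5 genes with the most such words and for rpl-12 and rps-28, with 1 word and none, on the strand of the gene (RefSeq sequence of WBcel235, the build also named ce11). Capitals mark every word of 8 letters that was found, in either orientation, under at least 3 of the 11 optimal summits.
rpl-3 (chrIII:3867521-3867621, plus strand): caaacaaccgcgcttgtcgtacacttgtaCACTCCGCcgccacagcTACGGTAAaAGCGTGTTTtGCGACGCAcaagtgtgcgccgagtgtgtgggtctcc
rpl-15 (chrIV:654869-654969, minus strand): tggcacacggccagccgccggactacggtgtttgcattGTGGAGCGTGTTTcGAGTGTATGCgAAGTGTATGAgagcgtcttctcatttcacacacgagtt
rpl-20 (chrIV:4750032-4750132, minus strand): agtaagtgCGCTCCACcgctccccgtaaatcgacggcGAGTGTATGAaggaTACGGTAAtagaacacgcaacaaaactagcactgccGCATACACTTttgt
rpl-35 (chrIII:7854659-7854759, plus strand): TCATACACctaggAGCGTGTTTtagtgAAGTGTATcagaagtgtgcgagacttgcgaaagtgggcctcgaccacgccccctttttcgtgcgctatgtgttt
rps-1 (chrIII:4475605-4475705, plus strand): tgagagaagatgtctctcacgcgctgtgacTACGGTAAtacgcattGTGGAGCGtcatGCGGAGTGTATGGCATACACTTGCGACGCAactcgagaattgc
rpl-12 (chrIV:13240595-13240695, minus strand): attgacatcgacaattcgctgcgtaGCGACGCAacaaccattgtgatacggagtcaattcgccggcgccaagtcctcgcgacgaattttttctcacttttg
rps-28 (chrIV:1659244-1659344, plus strand): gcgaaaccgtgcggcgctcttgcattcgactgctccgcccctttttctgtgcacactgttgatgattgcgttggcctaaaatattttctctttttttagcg

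By this count 14.1% of the ribosomal protein genes had an optimal peak (exact Clopper-Pearson 95% interval 7.26% to 23.8%, counting error over genes only), against 382 of all 19973 protein-coding genes, or 1.91%. The count depended on the window: from 250 bp upstream to 100 bp downstream, 3 of the 78 genes, or 3.85%, and 1.22% of all genes had one. Each replicate alone gave the same number when as many of its strongest regions as there are optimal peaks stood in for them. In replicate 1 these strongest regions lay in the windows of 11 ribosomal protein genes, or 14.1%, against 1.67% of all genes, and in replicate 2 of 11 ribosomal protein genes, against 1.99%. In both replicates together 10 ribosomal protein genes, or 12.8%, had such a region, against 0.996% of all genes. The members were chosen with results of these data known and genes are not replicates, so shares stand beside their background without a test.

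Among the 100 strongest pooled regions, 5 lay at ribosomal protein genes, 6.41% of them, against 42 or 0.21% of all genes. Among the 500 strongest, 10 did, 12.8% against 1.03% of all genes, and by rank 5000 there were 27, 34.6% against 7.59%. Over the whole pooled list, 47 ribosomal protein genes, or 60.3% (95% interval 48.5% to 71.2%), had a candidate region in the window, against 28.3% of all genes. In the window from 250 bp upstream to 100 bp downstream this share was 19.2% (15 genes), close to the 17.3% of all genes. The candidate list of replicate 1 gave 40 of them, or 51.3%, against 27.6% of all genes, and that of replicate 2 gave 48, or 61.5%, against 28.8%. The plot of the share of genes by rank shows the ribosomal protein genes above all genes at each of the 8 rank limits drawn.

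**Figure D1:**
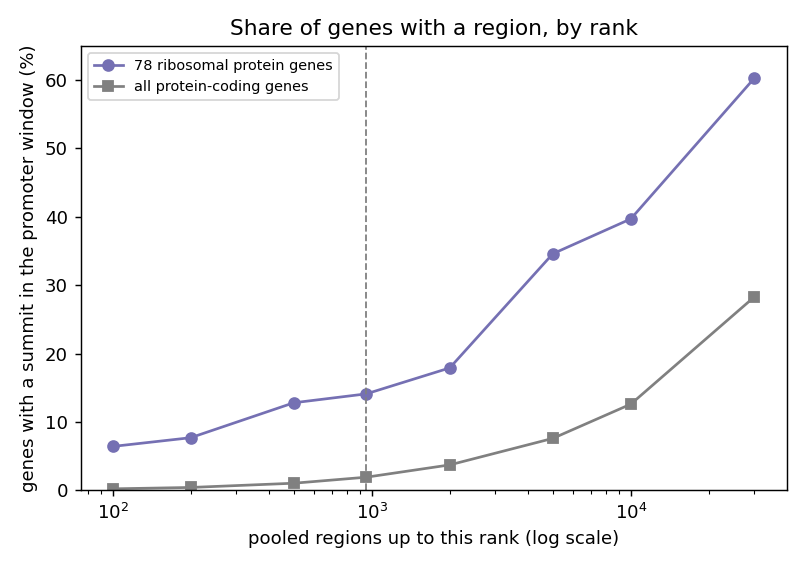
Share of genes (%, vertical axis) whose promoter window holds a pooled summit at or above each rank (horizontal axis, log scale), for the 78 ribosomal protein genes (circles) and all 19973 protein-coding genes (squares). The dashed line marks the number of optimal peaks, where 14.1% of ribosomal protein genes and 1.91% of all genes have one.

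Both subunits were represented. Of the large subunit genes 7 of 47 had an optimal peak, or 14.9% (95% interval 6.2% to 28.3%), and of the small subunit genes 4 of 31, or 12.9% (3.63% to 29.8%), so the intervals overlap. The pooled candidate list reached 32 large subunit genes, or 68.1%, and 15 small subunit genes, or 48.4%. The candidate list of replicate 1 had the opposite order, with 23 large subunit genes, or 48.9%, and 17 small subunit genes, or 54.8%, and that of replicate 2 had 32, or 68.1%, and 16, or 51.6%. Where a pooled region was present, its median rank was 4301.5 for large and 2237 for small subunit genes. Over both subunits the median was 3684 for the 47 genes, against 11912 for the 5613 other genes with a pooled region.

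The large subunit gene rpl-3 (WBGene00004414, chrIII:3867854-3869587, + strand), whose product lies close to the site where peptide bonds are formed, had the strongest pooled region of the genome, with a signal value of 554.9 and its summit 283 bp upstream. It ranked 1 in replicate 1, with a signal of 187.9, and 2 in replicate 2, with a signal of 370.5. Both replicates thus had it among their highest regions, and their summits lay 7 bp apart. No gene starts within 1000 bp of it on the other strand. The next gene upstream, acs-19, named as an acyl-CoA synthetase, reads in the same direction and lies wholly upstream of the summit.

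The large subunit gene rpl-15 (WBGene00004427, chrIV:653480-654576, − strand) had pooled rank 6 and a signal of 408.9, with ranks 9 and 6 in replicates 1 and 2 and its summit 343 bp upstream. It shares the summit's window with K11H12.8, which starts 814 bp away on the other strand and 471 bp from the summit. Introns of rpl-15 hold the snoRNA genes K11H12.12 and K11H12.13. The large subunit gene rpl-20 (WBGene00004432, chrIV:4749123-4749778, − strand) had pooled rank 17, a signal of 336.1, and ranks 11 and 19 in replicates 1 and 2. Its summit lay 304 bp upstream of rpl-20 but only 158 bp from the start of its divergent partner Y17G9B.5, so position alone does not assign it to either gene.

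The large subunit gene rpl-35 (WBGene00004449, chrIII:7855134-7855646, + strand), whose product sits at the mouth of the tunnel through which the new chain leaves, had pooled rank 38 and a signal of 266.3. Its ranks were 111 in replicate 1 and 30 in replicate 2, with the summit 425 bp upstream, the farthest of the 11, and no divergent partner. The large subunit gene rpl-12 (WBGene00004424, chrIV:13239587-13240651, − strand), whose product lies at the base of the stalk that binds translation factors, had pooled rank 207, with ranks 288 and 267 in the replicates. Of the 11 it had the only summit downstream of the start, 6 bp into its first exon, and the replicate summits were 1 bp apart. Its divergent partner is lin-54, for the DNA-binding subunit of the DREAM repressor complex, which starts 399 bp from the summit.

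The 2 weakest large subunit genes with an optimal peak were rpl-7A and rpl-11.2. The gene rpl-7A (WBGene00004419, chrIV:4389143-4390590, − strand) had pooled rank 496, with ranks 428 and 682 in the replicates, and its summit 62 bp upstream, 192 bp from the start of set-21, a gene named for its SET domain. It carries the intronic snoRNA genes Y24D9A.9 and Y24D9A.10. At this summit 57 of the 72 words of 30 bases were found once in the genome, whereas all 72 were at the other 10 summits, so some reads here may map to more than 1 place. The gene rpl-11.2 (WBGene00004423, chrX:2241738-2242618, − strand), whose product helps form the central protuberance of the large subunit, had pooled rank 569 and its summit 417 bp upstream. Its ranks were 1380 in replicate 1 and 669 in replicate 2, so it was the 1 gene of the 11 outside the strongest regions of a replicate so counted.

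Among small subunit genes the strongest was rps-19 (WBGene00004488, chrI:9625049-9625796, − strand), whose product acts in maturation of the small subunit in yeast and human and whose human homologue is mutated in Diamond-Blackfan anaemia. It had pooled rank 90 and a signal of 213.4, with ranks 152 and 87 in replicates 1 and 2. The summit lay 299 bp upstream of rps-19 and 146 bp from the start of hsr-9, a divergent gene related to a mammalian DNA damage response protein. The gene rps-1 (WBGene00004470, chrIII:4475918-4476876, + strand) had pooled rank 108, with ranks 472 and 90, and its summit 263 bp upstream. Replicate 2 placed it well above replicate 1, with a rank ratio of 5.24, and the summit fell within the small non-coding genes F56F3.10 and F56F3.11. Its divergent partner ifet-1, a translational repressor of the germ line, starts 505 bp from the summit.

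The gene rps-28 (WBGene00004497, chrIV:1659691-1659997, + strand) had pooled rank 288, with ranks 105 and 365 in replicates 1 and 2, no divergent partner and a summit 397 bp upstream. Its replicate summits lay 78 bp apart, the widest of the 11. The gene rps-12 (WBGene00004481, chrIII:5679298-5680187, + strand) had pooled rank 494, with ranks 499 and 622, and its summit 183 bp upstream. The divergent gene ska-3, of the kinetochore-associated Ska complex, starts nearer, 110 bp from the summit, and introns of rps-12 hold the snoRNA genes F54E7.10 and F54E7.11. In the authors' lists the pooled q value was 0.00137 for the first 8 of these genes by rank, 0.00507 for rps-12, 0.00505 for rpl-7A and 0.0044 for rpl-11.2. The first 8 share 1 value, so it does not order them. For rpl-11.2 the q value was 0.0634 in replicate 1 and 0.00224 in replicate 2.

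**Figure D2:**
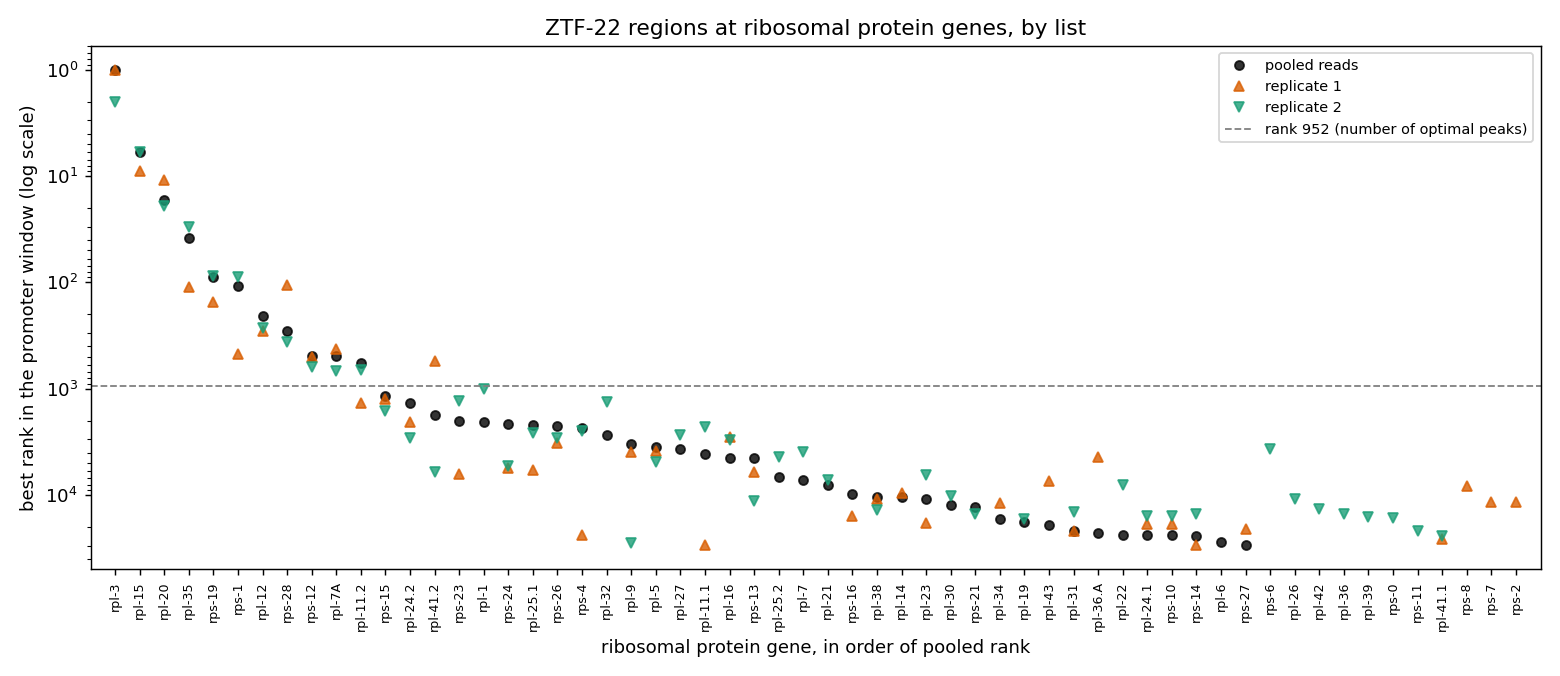
Best rank in the promoter window (vertical axis, log scale, strongest at the top) for each ribosomal protein gene with a region in any list, ordered by pooled rank, in the pooled list (circles), replicate 1 (upward triangles) and replicate 2 (downward triangles). The dashed line is the rank of the weakest optimal peak, and 11 genes have a pooled summit above it.

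No ribosomal protein gene had a pooled rank between 569 and 1169. The best-ranked genes outside the optimal list were rps-15 at 1169, rpl-24.2 at 1365, rpl-41.2 at 1761, rps-23 at 2009 and rpl-1 at 2081. The gene rps-15, for a protein of the small subunit, had ranks 1265 and 1616 in replicates 1 and 2, and rpl-24.2, the homologue of a yeast ribosome assembly factor rather than of a ribosomal protein, had 2084 and 2916. Their pooled q values were 0.0184 for rps-15 and 0.0319 for rpl-24.2, and 0.0719, 0.106 and 0.116 for the next 3. The gene rps-23 had ranks 6355 and 1311, at summits 546 bp apart, and rpl-1 had no region in replicate 1 and rank 998 in replicate 2. Without rpl-24.2, which the naming rule includes, the number of genes with an optimal peak was still 11. The divergent partners were F36A2.9 at rps-15, dpm-3 at rps-23 and Y71F9AL.9 at rpl-1, rps-23 carries the intronic snoRNA gene F28D1.13, and the summit of rpl-24.2 lies inside C03D6.1.

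The ranks in replicate 1 and replicate 2 followed each other over these genes. Among the 31 ribosomal protein genes with a region in both replicate lists, Spearman's rho of the ranks was 0.799, against 0.421 over 3131 other genes. This is a description across genes with no test, and the replicates share 1 control alignment. The groups also differ in strength, with median pooled ranks of 3684 and 11912 among genes with a pooled region. The rho values are thus not compared at like ranks. In addition, rps-10 and rpl-24.1 enter with the same ranks, 18625 and 15855 in replicates 1 and 2. Replicate 2 gave the better rank in 18 of the 31. The largest disagreement was at rpl-11.1, with rank 29568 in replicate 1 and 2322 in replicate 2, a ratio of 12.7. It was followed by rpl-41.2 with 554 and 6104, rps-4 with 23832 and 2503, rpl-9 with 3990 and 28157, and rps-1 with the ranks given above. Because of its rank 554, rpl-41.2 counted among the strongest regions of replicate 1 and not of replicate 2. Divergent partners were T22F3.2 at rpl-11.1 and lpd-7 at rpl-9, and rps-4 carries the intronic snoRNA gene Y43B11AR.7. At the optimal peaks summits were close: 9 of the 11 had replicate summits within 30 bp of each other, with a median of 14 bp. The distance was not measured at optimal peaks of other genes. At ribosomal protein genes below the optimal list it reached 546 bp, at rps-23.

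Genes that share a number in their names differed in rank. The gene rpl-11.2 had an optimal peak at rank 569, while rpl-11.1 had pooled rank 4094 with its summit in an exon, 106 bp downstream. Between rpl-25.1 and rpl-25.2 the ranks were 2178 and 6841, with both summits downstream of the start, that of rpl-25.2 by 87 bp. The gene rpl-41.2 had rank 1761, whereas rpl-41.1 had no pooled region and ranks 25750 and 24565 in replicates 1 and 2. The gene rpl-24.1 had rank 24081 at a summit it shares with its divergent partner rps-10, against 1365 for rpl-24.2. The genes rpl-7A and rpl-7, and rpl-36.A and rpl-36, encode different proteins and are not copies of each other. The gene rpl-7A had rank 496 and rpl-7 had 7232. The gene rpl-36.A had rank 22675, next to its divergent partner nuo-1, and rpl-36 had only a region of rank 15073 in replicate 2. At 45 of the 47 pooled summits of ribosomal protein genes all 72 words of 30 bases were found once in the genome, so none of these holds a run of 30 bases that recurs at a paralogue.

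A further 11 ribosomal protein genes had a region in a replicate list only. Of all genes 28.3% had a pooled region and 57.8% had none in any list, and the rest had one in a replicate list only. For ribosomal protein genes the first 2 shares were 60.3% and 25.6%. The rest is thus of like size in both, and these 11 are not set apart from the background. The remaining 20, or 25.6%, had none in any list, against 57.8% of all genes. These 20 were rpl-2, rpl-4, rpl-10, rpl-13, rpl-17, rpl-18, rpl-28, rpl-29, rpl-33, rpl-37, rps-3, rps-5, rps-9, rps-17, rps-18, rps-20, rps-22, rps-25, rps-29 and rps-30. They hold proteins of both subunits, among them rps-3, which lies at the entry of the mRNA channel. A list that keeps 30000 regions says of these genes only that no stronger summit was called in their windows. By chromosome, ribosomal protein genes with an optimal peak were 4 of 18 on III, or 22.2%, against 2.35% of all genes there, and 5 of 17 on IV, or 29.4%, against 1.83%. They were 1 of 23 on I, or 4.35%, against 1.74%, and 1 of 2 on X, against 3.11%. None was among the 10 on II or the 8 on V, where 1.62% and 1.38% of all genes had one.

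The optimal summits at ribosomal protein genes lay farther upstream than at other genes with an optimal peak. Their median offset was −299 bp (range −425 to 6), where negative means upstream, against −170 bp at 371 other genes (quartiles −287 and −65). Of the 11, 8 or 72.7% lay more than 250 bp upstream, against 119 of 371, or 32.1%. These 8 are the genes without an optimal peak in the narrow window above, and the difference in position was not tested. Over all pooled regions 35 of 47 summits were upstream, or 74.5%, against 69.9% at other genes. Among the 36 ribosomal protein genes whose region was not an optimal peak, the median offset was −254 bp, and 11 summits lay downstream of the start.

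**Figure D3:**
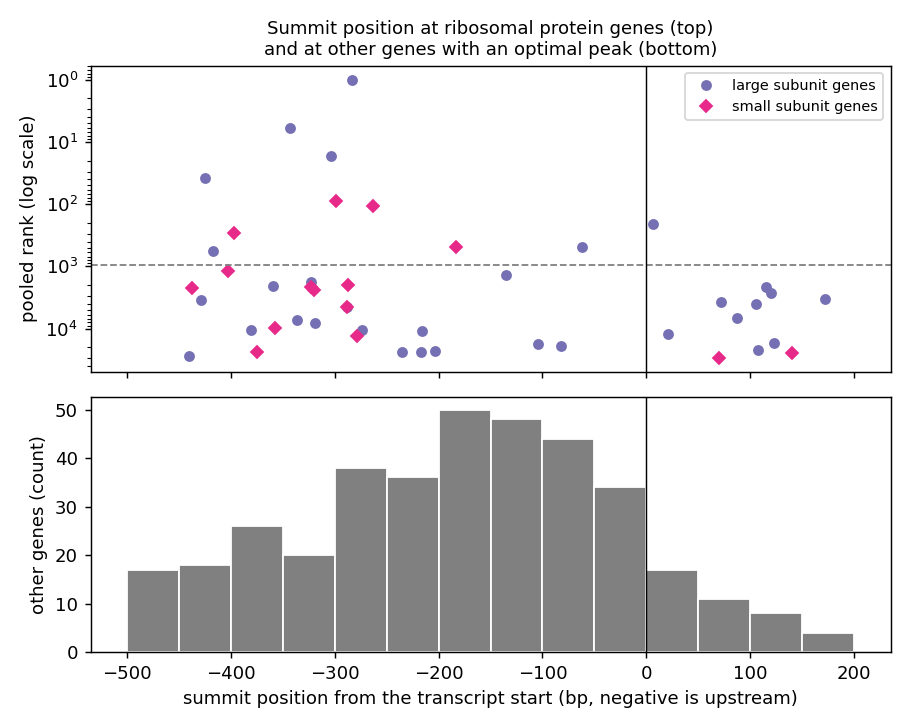
Top, position of the best pooled summit from the transcript start (horizontal axis, bp, negative is upstream) and its rank (vertical axis, log scale) for the 47 ribosomal protein genes with a pooled region, by subunit, with a dashed line at the rank of the weakest optimal peak. Bottom, number of other genes with an optimal peak by position of that peak, in steps of 50 bp. The ribosomal protein genes above the line centre on −299 bp and the other genes on −170 bp.

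Divergent promoters were common among the ribosomal protein genes. A protein-coding gene started within 1000 bp on the other strand, reading away, at 47 of 78 ribosomal protein genes, or 60.3%, against 17.7% of all genes. Of those 47, 7 had an optimal peak, or 14.9%, and of the 31 without such a partner 4 had one, or 12.9%. Over all genes the shares were 3.33% with a partner and 1.61% without. Among genes with an optimal peak, 7 of 11 ribosomal protein genes, or 63.6%, and 111 of 371 other genes, or 29.9%, had a partner. Of the 11 summits 6 also lay in the window of another protein-coding gene, and 3 (at rpl-20, rps-19 and rps-12) lay nearer to that gene's start. Only protein-coding genes were counted, here and wherever a summit was given to its nearest gene. Non-coding genes on the other strand start nearer at rpl-11.2 and rps-1. Both linc-78 and AH9.7 start at −80 bp from the summit of rpl-11.2, which lay 417 bp from that gene. At rps-1, F56F3.11 starts 2 bp from the summit. Counting each summit for its nearest gene only left 8 ribosomal protein genes with an optimal peak, or 10.3%, against 1.67% of all genes. The divergent pairs made of ribosomal protein genes on both sides were rps-10 with rpl-24.1, rps-14 with rpl-36, and rpl-39 with rps-30, and none of the 3 had an optimal peak.

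**Figure D4:**
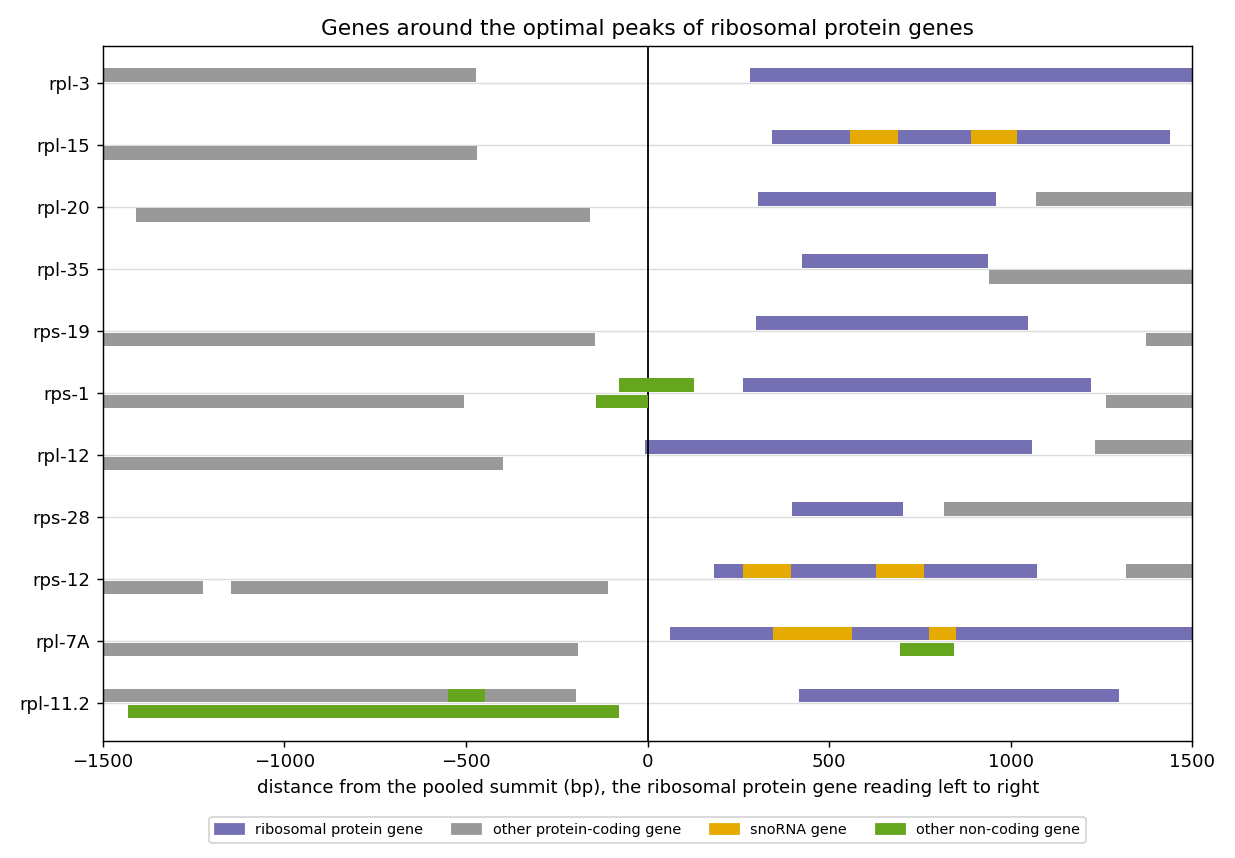
Genes within 1500 bp of the 11 optimal summits (horizontal axis, distance in bp), each row turned so that the ribosomal protein gene reads left to right, with genes of its direction above the row's line and genes of the other direction below it. The summit falls in the gap between genes in 9 rows. The exceptions are rps-1, where it falls in short non-coding genes, and rpl-12, where it falls at the start of the gene.

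Intronic snoRNA genes were found in 13 of the 78 ribosomal protein genes, or 16.7%, which hold 19 of them, against 0.656% of all genes. Of these 13 host genes 3 had an optimal peak, or 23.1% (rpl-15, rps-12 and rpl-7A), against 8 of the 65 without a snoRNA, or 12.3%. Over all genes, 11 of 131 hosts, or 8.4%, and 1.87% of the other genes had one. The 3 ribosomal protein genes are among those 11. With 13 hosts the share is imprecise, and no difference between hosts and other genes was tested.

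The DNA under the 11 optimal summits was of higher GC content than under other optimal peaks of promoter windows, with a median of 51.5% over the summit and its flanks of 50 bp (range 48.5% to 58.4%) against 46.5% at 329 other summits (quartiles 40.6% and 52.5%). The part of base composition in the ranks was not tested. Of 6 known motifs searched on both strands, only GAGAGA was present, under 2 of the 11, or 18.2%, against 20.4% of the 329 others. The motif CTGCGTC was under none of the 11 and under 9.12% of the others. The letters TGATAA, which GATA factors bind, were under none and under 21.3%, and the core of the usual box for the TATA-binding protein, TATAAA, under none and under 7.6%. The E-box CACGTG was under none and under 6.99%. The B box of tRNA promoters, GTTCNANNC with N for any base, was under none and under 5.78%. No match says only that these letters are not within 50 bp of the summit. With 11 summits such shares are imprecise, and no difference was tested. In the whole promoter windows of the 11 genes, TATAAA was at 5, TGATAA at 3, GTTCNANNC at 6 and CTGCGTC at 1. Of all genes 62.7%, 53.8%, 21.5% and 7.81% had them there. GAGAGA was at 5 of the 11 and CACGTG at none, against 36.8% and 12% of all genes.

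The words in capitals above were picked from the 11 sequences themselves, so their number there is a description. There were 11 words, several of which overlap and form longer stretches. AAGTGTAT was under 4 of the 11 summits (rpl-15, rpl-20, rpl-35 and rps-1), under none of 41 other pooled summits in windows of ribosomal protein genes, and under 1 of the 329 other optimal summits, or 0.304%. It was under 19 of 5874 other pooled summits in promoter windows, or 0.323%. AGTGTATG, GTGTATGA, ATACACTC and GCATACAC, each under 3 of the 11, share most of their letters with it in 1 orientation or the other, and several of them run into each other in the sequences of rpl-15 and rps-1. AAACACGC and AACACGCT, which overlap by 7 letters, were under rpl-3, rpl-15 and rpl-35, against 3.04% and 1.82% of the other optimal summits. CACTCCGC (rpl-3, rps-1 and rps-12), CGCTCCAC (rpl-15, rpl-20 and rps-1) and GCGACGCA (rpl-3, rps-1 and rpl-12) were each under 3, against 1.22%, 1.82% and 0.912%. CGCTCCAC was also under 1 of the 41 other pooled summits, at rps-15. Genes with no region in any list hold some of these words too. In whole promoter windows CACTCCGC was also at rpl-18, rpl-33 and rps-29, CGCTCCAC at rps-22, and AAACACGC and AACACGCT at rpl-18.

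TACGGTAA was under 3 of the 11 (rpl-3, rpl-20 and rps-1), and it also occurred under 3 of the 41 other pooled summits of ribosomal protein genes, or 7.32%, against 1.22% of the 329 other optimal summits and 0.204% of the 5874 other pooled ones. In whole promoter windows it was present at 13 of 78 ribosomal protein genes, or 16.7%, against 2.63% of all genes. Of those 13 genes 4 had an optimal peak, 3 of them the genes whose summits gave the word, against 17 of all 525 genes with it, or 3.24%, and rpl-18 and rps-17, which also hold it, had no region in any list. AAGTGTAT was in the windows of 4 ribosomal protein genes, or 5.13%, against 3.16% of all genes. All 4 had an optimal peak, but the word was picked from the summits of these same genes, so this number is only a description. Of all 632 genes with the word 16 had an optimal peak, or 2.53%. Of the 6 strongest genes 5 held at least 4 of the words: rpl-15 and rps-1 held 8 of the 11, rpl-20 held 7, rpl-3 held 5 and rpl-35 held 4. Only 1 was under rpl-12 and 1 under rps-12, and none was under rps-19, rps-28, rpl-7A and rpl-11.2. Matches were read on both strands, and a match is not a measured binding site.

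Other genes of protein synthesis were counted in the same windows. None of 6 ribosomal protein genes with other names (rla-0, rla-1, rla-2, ubl-1, ubq-2 and rack-1) had an optimal peak, and only rla-1, a protein of the ribosomal stalk, had a region, at pooled rank 15277. None of 70 genes for mitochondrial ribosomal proteins had an optimal peak, and 20, or 28.6%, had a pooled candidate region, against 1.91% and 28.3% of all genes. Of 6 elongation factor genes, eef-1A.2, which delivers aminoacyl-tRNA, had an optimal peak at rank 112, which makes 16.7%. With it, 5 of the 6, or 83.3%, had a pooled region, at a median rank of 1305, against 28.3% of all genes. Among them eef-1G had rank 686 in replicate 2 and 9387 in replicate 1. Of 33 initiation factor genes 2 had an optimal peak, or 6.06%, iff-2 at rank 46 and eif-3.C at rank 662. Among 23 nucleolar and ribosome assembly genes pro-1 had one (4.35%), at rank 487, and among 10 genes for subunits of RNA polymerases I and III rpac-19 had one (10%), at rank 616. Pooled regions were found at 36.4% of the initiation factor genes, 43.5% of the nucleolar and assembly genes and 50% of the polymerase subunit genes. With 1 or 2 optimal peaks in each of these lists, against 1.91% of all genes, the counts of such peaks are too small to set the lists apart.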

How the data were processed

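ChIP-seq of ZTF-22::EGFP in whole young adult C. elegans (2 biological replicates, per the labels, in 1 group) was analysed from the deposited region lists. The authors deposited, for each region, a signal value of their peak caller and a −log10 q value, on ce11, in a list of optimal peaks (from the irreproducible discovery rate), a pooled list and a list for each replicate, all made with the same control alignment per the deposited descriptions. Which caller, aligner and threshold were used is not given in the sources used here, and read depth is unknown. A list of called regions gives no value for a window without one.

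Regions were ranked by signal value within a list, and summits were placed from 500 bp upstream to 200 bp downstream of transcript starts of protein-coding genes on 6 nuclear chromosomes (Ensembl release 115). Python 3.11.15, pandas 2.3.3, numpy 2.4.6 and scipy 1.17.1 were used, with matplotlib 3.10.9 for figures, and sequence came from RefSeq. Placement was checked on simulated summits. Intervals are exact binomial (95%) and cover counting error only. With 1 group and genes that are not replicates, no test was made.

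The members and lists were chosen with earlier results of these data known. The genes named are those with an optimal peak or one of as many strongest regions of a replicate as there are optimal peaks, the 5 next in pooled rank, the 5 with the largest ratio of replicate ranks, genes whose names share a number, and their divergent partners and intronic snoRNAs. Words of 8 letters were chosen after the sequences were seen. Alternatives were other windows, other ways of assigning summits, 476 regions in place of the full number of optimal peaks, each replicate alone and 100 bp on either side of the summits.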

Additional observations from a re-analysis of the deposited data

How the results depend on the processing

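The number of ribosomal protein genes with an optimal peak was 11 (14.1%, against 1.91% of all genes). It was 12 with a window from 1000 bp upstream (15.4%, against 2.61%). It stayed 11 with the most upstream start only (against 1.69%) and with any overlap of region and window (against 2.29%). It was also 11 from replicate 1 alone (against 1.67%) and from replicate 2 alone (against 1.99%). It was 8, or 10.3%, with each summit given to its nearest gene (against 1.67%) and with the 476 strongest regions only (against 0.951%). The window from 250 bp upstream to 100 bp downstream moved every count: 3 genes had an optimal peak (3.85%, against 1.22% of all genes), 15 a pooled candidate region (19.2%, against 17.3%), 4 one of the strongest regions of replicate 1 (5.13%, against 0.941%), 3 of replicate 2 (3.85%, against 1.23%) and 3 of both (3.85%, against 0.511%), with a median offset of −62 bp, since summits farther upstream are left out by its construction. The median offset of −299 bp was −313 bp with each summit given to its nearest gene, and ranged from −283 bp to −276 bp when a replicate was left out. With 100 bp on either side of the summits, the shares with the 6 known motifs stayed on the same side of those of other optimal summits. The signal scale differed between lists and depth is unknown, and 2 replicates give only a rough estimate of the error of a rank. Genes with no region were not measured as unbound.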
